A study of Mus musculus with 20 samples.

Results

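CC chemokine ligands were measured as transcripts in dendritic cells grown from mouse bone marrow (BMDCs). The 10 genes Ccl2, Ccl3, Ccl4, Ccl5, Ccl6, Ccl7, Ccl9, Ccl17, Ccl22 and Ccl24 were chosen by name, with earlier results of these data known. All 10 were among the 24421 genes listed, and all 10 passed the filter on low counts that left 12465 genes for testing. Bulk RNA-seq libraries came from the BMDCs of 5 mice, named A to E. With the same letter read as the same animal, each mouse gave 1 library in each of 4 groups, 20 libraries in all, matched by animal. Each letter covers 4 consecutive sample titles, which name no animal, so the pairing is inferred. Cells grown for 8 days with 40 ng/mL GM-CSF were given the bromodomain inhibitor I-BET151 (iBET) at 3.3 uM or DMSO, labelled as 5%, and were then held for 4 hours with ovalbumin alone (Ova) or with ovalbumin immune complexes (IC). The labels give the DMSO share for the solvent groups, so whether the iBET groups held as much DMSO cannot be read from them, and neither strain nor age is given for these 5 animals. Mice of both sexes were used in the study, and its methods place iBET before the stimulus whereas the labels say that both were added together.

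CC chemokines are small secreted proteins that draw leukocytes along a gradient by binding G protein-coupled receptors of the CCR family. In dendritic cells they belong to an early response to danger signals and Fc receptor ligation, and some are also made steadily by cells grown in GM-CSF. BET proteins bind acetylated histones and help to recruit the transcription machinery, and iBET keeps them from that binding.

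Total counts ran from 16447491 to 29245150 per library, with a median of 21764663. Levels are given as CPM, the count of a gene relative to the library total after scaling by TMM factors, measured over the whole culture, so fewer cells of a type and less RNA per cell cannot be told apart. All 7 dendritic cell markers examined were tested and their summed level was 4100 to 8275 CPM per library, of which Itgax, the CD11c gene, had a group mean of 1962 CPM in DMSO Ova and 2108 CPM in iBET Ova. The 7 macrophage markers summed to 902 to 2022 CPM, 3 erythroid markers to at most 6.62 CPM, and the T cell, NK cell, B cell and fibroblast lists each to at most 0.848 CPM. Klra8 and Col3a1 were at 0 in every library. Some markers moved with iBET. The 4 summed monocyte markers were at 363 to 764 CPM in DMSO Ova and 47.1 to 62.0 CPM in iBET Ova, where the mean of Ccr2 was 487 and 15.0 CPM and that of Ly6c2 30.4 and 30.9 CPM. The macrophage sum was 1307 to 1942 CPM and 902 to 1293 CPM in these groups. The dendritic sum was 4100 to 6181 CPM and 4455 to 6627 CPM, and within it Flt3, Ciita and Batf3 had means of 3.03, 43.8 and 18.7 CPM with DMSO against 0.242, 1.36 and 5.57 CPM with iBET, whereas those of Cd74 were 2661 and 3169 CPM, of H2-Ab1 289.5 and 287 CPM, and of Zbtb46 24.5 and 20.0 CPM. The part of these cell markers in the ligand values below was not tested.

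Mice A and B stood apart from mice C, D and E, a division seen in the values and not given by the labels. Ccl5 and Ccl22 were higher and Ccl6 and Ccl9 lower in mice C, D and E than in mice A and B, with no overlap in any of the 4 groups. That is 4 of the 10 ligands, or 40%, whereas 1910 of the 12465 genes tested, or 15.3%, were divided in the same way. Because the division was taken from these same values, the shares are a description and not a test. Cell markers were divided by mouse too. The sum of 7 mast cell, basophil and eosinophil markers was 23.6 to 36.4 CPM in mice A and B and 81.1 to 107 CPM in mice C, D and E. For 8 neutrophil markers the sum was 12.6 to 17.1 CPM against 19.5 to 52.7 CPM. Dendritic cell markers reached 4100 to 5736 CPM in A and B and 5129 to 8275 CPM in C, D and E, and macrophage markers 1125 to 2022 CPM and 902 to 1546 CPM. H2-Ab1, Cd74, Flt3, Zbtb46, Batf3 and Ciita were higher in C, D and E without overlap in every group, whereas Itgax overlapped or was lower. In DMSO Ova, Zbtb46 was 12.0 to 12.9 CPM against 31.9 to 33.7 CPM. Csf1r, Mertk, Cd68 and Apoe were lower in C, D and E without overlap in every group, while Adgre1, C1qa and C1qb overlapped in some or all. The part of these cells in the ligand levels was not tested. With the same letter read as the same animal, each mouse was in every group, so comparisons between groups were also fitted with the mouse as a block. Both fits are given where they differ in their calls.

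The genes lie in 4 places of the GRCm38 genome. Ccl2 (11:82035571-82037453) and Ccl7 (11:82045712-82047525) are both on the plus strand of chromosome 11 within 12.0 kb. Farther along that chromosome, a second group of 138.9 kb holds Ccl5 (11:83525778-83530518), Ccl9 (11:83572919-83578636), Ccl6 (11:83587882-83593087) and Ccl3 (11:83647844-83649355) on the minus strand and Ccl4 (11:83662584-83664683) on the plus strand. Ccl22 (8:94745590-94751699) and Ccl17 (8:94810453-94812036) are 64.9 kb apart from start to start on the plus strand of chromosome 8, and Ccl24 (5:135569937-135573049) is alone on the minus strand of chromosome 5. All are annotated as protein coding. The annotation puts Ccl2 over Gm17268 and Ccl6 over E230016K23Rik, each on the other strand, and the strand setting of the counting is not given. E230016K23Rik held 41 to 907 counts per library, against 93269 or more for Ccl6. Of all 50-base windows of the transcripts, 59 of the 2996 in Ccl9 were shared with other genes and none in the other 9 ligands, so that reads of neighbouring ligands were separable by sequence.

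Start regions from RefSeq were at hand for 5 of the 10 genes, all shown here, and were lacking for Ccl2, Ccl4, Ccl5, Ccl7 and Ccl24. They include the neighbours Ccl9 and Ccl6, of which the first was called lower with iBET and the second was not called. They also include the neighbours Ccl22 and Ccl17, and Ccl3, 1 of the 2 ligands that fell most. The runs below are the bases just before the start of transcription, 5′ to 3′ on the strand of the gene, from GRCm38.p6, with motif matches in capitals. The window of Ccl22 was cut to 156 bases because the other annotation used here starts the gene 94 bases earlier. The regions are chr11:83649379-83649628 (minus strand) for Ccl3, chr11:83578637-83578886 (minus strand) for Ccl9, chr11:83593088-83593337 (minus strand) for Ccl6, chr8:94745434-94745589 (plus strand) for Ccl22 and chr8:94810203-94810452 (plus strand) for Ccl17.
Ccl3: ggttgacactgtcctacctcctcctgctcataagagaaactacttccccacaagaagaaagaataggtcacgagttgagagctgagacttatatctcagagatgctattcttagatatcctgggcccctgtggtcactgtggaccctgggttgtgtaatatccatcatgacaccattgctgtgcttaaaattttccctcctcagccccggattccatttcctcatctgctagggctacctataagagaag
Ccl9: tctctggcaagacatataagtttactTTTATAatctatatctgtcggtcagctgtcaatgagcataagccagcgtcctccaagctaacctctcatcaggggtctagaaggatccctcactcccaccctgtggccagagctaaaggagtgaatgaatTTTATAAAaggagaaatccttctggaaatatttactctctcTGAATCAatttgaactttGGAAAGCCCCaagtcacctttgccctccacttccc
Ccl6: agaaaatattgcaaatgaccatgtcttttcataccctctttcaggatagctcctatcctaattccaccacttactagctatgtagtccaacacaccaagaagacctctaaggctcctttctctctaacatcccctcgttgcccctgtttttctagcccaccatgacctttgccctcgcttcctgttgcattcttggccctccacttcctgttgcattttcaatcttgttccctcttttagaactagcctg
Ccl22: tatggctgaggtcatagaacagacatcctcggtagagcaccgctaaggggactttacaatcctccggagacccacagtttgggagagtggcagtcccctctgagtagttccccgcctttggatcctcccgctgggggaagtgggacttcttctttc
Ccl17: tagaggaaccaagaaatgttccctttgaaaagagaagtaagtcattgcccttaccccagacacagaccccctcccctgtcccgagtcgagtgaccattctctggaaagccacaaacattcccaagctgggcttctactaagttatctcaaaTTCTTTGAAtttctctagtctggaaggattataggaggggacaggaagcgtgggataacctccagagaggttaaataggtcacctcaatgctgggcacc

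Letters were searched on both strands over 250 bases for the consensus of NF-kB and for TATAAA, the letters of the TATA box. An AP-1 site was searched as TGANTCA in the same way, and a STAT site as TTCNNNGAA. The Ccl9 window held an NF-kB match 35 to 26 bases before the start on the minus strand of the window, a TGANTCA match at 53 to 47 bases and 3 TATAAA matches, of which those at 94 to 89 and 92 to 87 bases overlap on opposite strands. A single TTCNNNGAA match was in the Ccl17 window, 99 to 91 bases before the start. None of these letters were found in the windows of Ccl3, Ccl6 and Ccl22, the searched 250 bases of Ccl22 included. Over 32851 RefSeq windows of the same length, 7.25% held the NF-kB consensus, 12.4% TATAAA, 6.75% TGANTCA and 7.02% TTCNNNGAA.

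The level of the ligands spanned over 3 orders of magnitude. Per kilobase of exon, the scale used to compare genes, Ccl6 was highest in all 4 groups, at a mean level of 3779 ± 1162 CPM per kb in DMSO Ova (SD, n = 5). Ccl17 came second at 955 ± 235 CPM per kb and was below Ccl6 in 5 of 5 mice without overlap. In DMSO Ova, Ccl22 followed at 487 ± 271 and Ccl9 at 471 ± 122 CPM per kb, and these neighbours did not differ beyond their spread, with Ccl22 above Ccl9 in 3 of 5 mice. Ccl5 stood at 148 ± 67.1 CPM per kb and Ccl3 at 35.2 ± 19.3 CPM per kb, each below the gene before it without overlap. At the lower end, Ccl4 (6.68 ± 2.71 CPM per kb) and Ccl2 (4.70 ± 3.16) overlapped although Ccl4 was above Ccl2 in 5 of 5 mice, and Ccl24 (0.856 ± 0.292) and Ccl7 (0.849 ± 1.03) were not separable. With iBET the order at this end was another one. In iBET Ova, Ccl2 at 9.42 ± 4.42 CPM per kb was next to Ccl3 at 10.6 ± 3.97, and Ccl4 at 1.32 ± 0.636 CPM per kb came after Ccl7 at 1.53 ± 0.893, with overlapping ranges. Together the 10 ligands took up 0.909 to 1.32% of all counts in DMSO Ova, 1.11 to 1.41% in DMSO IC, 0.750 to 1.12% in iBET Ova and 0.874 to 1.33% in iBET IC, and in every library most of that was Ccl6.

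**Figure D1:**
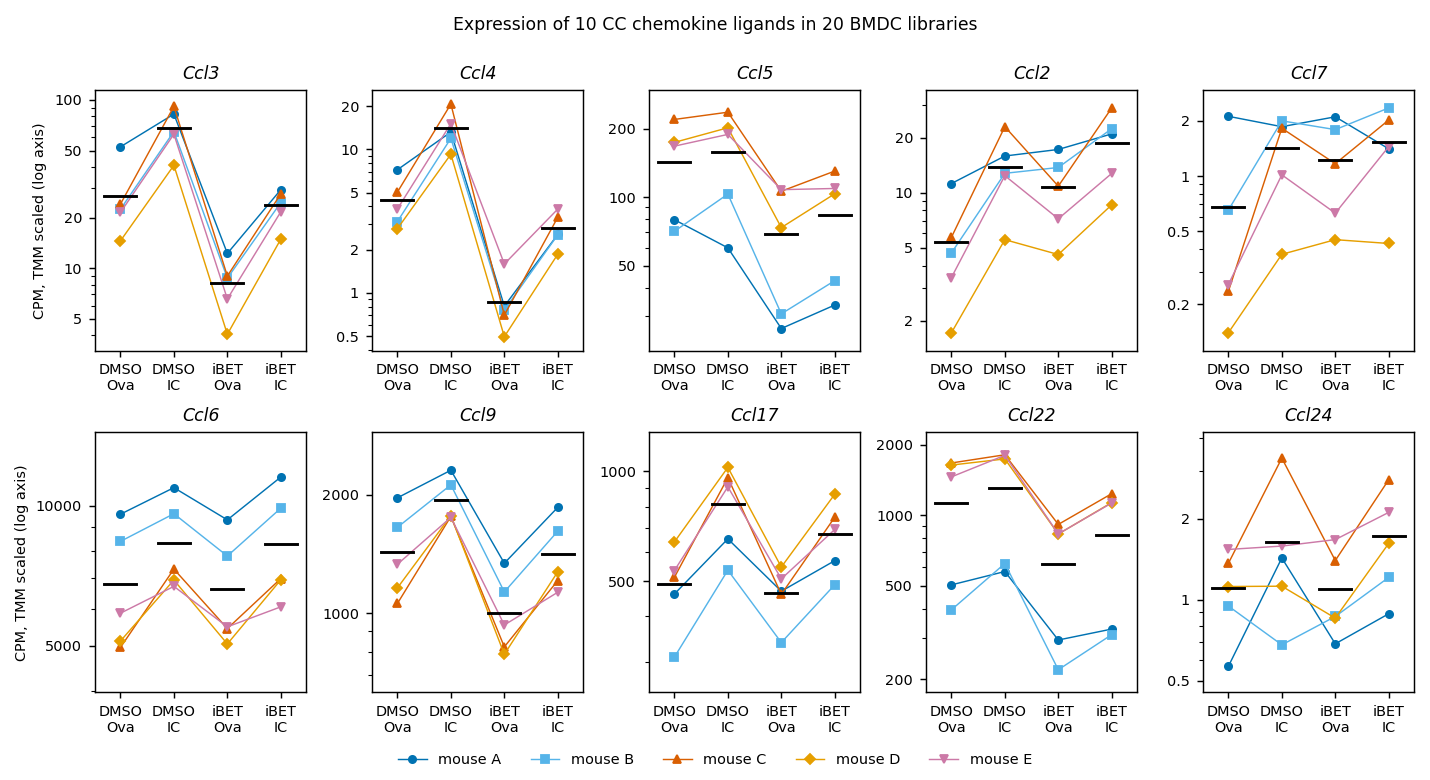
Level of each ligand in CPM (log axis) in the 4 groups, with 1 point per library, lines joining the 4 libraries of a mouse and black bars for the mean of 5 mice. Ccl3 and Ccl4 were lower with iBET under both stimuli in all 5 mice, and mice A and B sit apart from mice C, D and E for Ccl5, Ccl6, Ccl9 and Ccl22.

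The first question was how iBET changed the ligands under either stimulus. With Ova, Ccl3, Ccl4 and Ccl9 fell, 3 of 10, and the call was made in the lower direction for 28.9% of all genes tested. With IC the same 3 ligands fell, 3 of 10 against 29.0% of all genes. No ligand rose at an adjusted p under 0.05 by edgeR in either stimulus, whereas 27.7% of all genes rose with Ova and 27.1% with IC. At an unadjusted p under 0.05, 1 ligand was higher with Ova and 0 with IC. DESeq2 also called 0 higher in both, and limma on the normalised values called 1 with Ova and 0 with IC. With the mouse as a block, 5 ligands fell and 1 rose with Ova, and 6 fell and 1 rose with IC, where the same fit called 35.2% and 35.4% of all genes lower and 33.5% and 32.6% higher. DESeq2 with the block called 2 higher with Ova. The median log2 fold change of the 10 ligands was -0.30 with Ova and -0.37 with IC, against -0.0029 and -0.0054 for all genes. The share of ligands that fell was thus near that of all genes, except for the larger counts with the block. Among mice A and B alone 5 fell and 1 rose with Ova and 4 fell with IC, and among mice C, D and E 5 and 6 fell and 0 rose. The share of all genes called was not taken for fits to fewer mice, so these counts are not compared between sets of mice. The number higher with Ova was 2 without mouse A, when Ccl2 (log2 fold change 1.24, adjusted p = 0.0448) and Ccl7 (1.70, adjusted p = 0.0459) passed, and 1 without mouse D, when Ccl2 passed (0.95, adjusted p = 0.0369).

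The second question was how IC changed the ligands. In DMSO, Ccl2, Ccl3, Ccl4 and Ccl17 rose with IC, 4 of 10, whereas 9.59% of all genes rose. In iBET, Ccl3 and Ccl4 rose, 2 of 10 against 5.19% of all genes. The log2 fold change was above 0 for all 10 ligands in both treatments, with medians of 0.65 and 0.52 against -0.024 and -0.014 for all genes. No ligand fell with IC by edgeR, and 0 fell at an unadjusted p under 0.05, by DESeq2 or by limma in either treatment, while 10.7% and 6.63% of all genes fell. With the mouse as a block, 8 of 10 rose in DMSO, all but Ccl5 and Ccl24, and 9 of 10 in iBET, all but Ccl7, where the block fit called 18.3% and 14.2% of all genes higher. In the fit with the 4 groups only, the count in DMSO was 1 without mouse C, when Ccl4 alone passed, and 2 without mouse E, when Ccl3 and Ccl4 passed. In mice A and B alone, 0 ligands passed in either treatment, and in mice C, D and E 7 passed in DMSO and 6 in iBET. The share of all genes that passed was not taken for these fits to fewer mice, so the counts are not compared between sets of mice. Both comparisons rest on separate libraries, but each shares its libraries with the comparisons of iBET with DMSO.

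**Figure D2:**
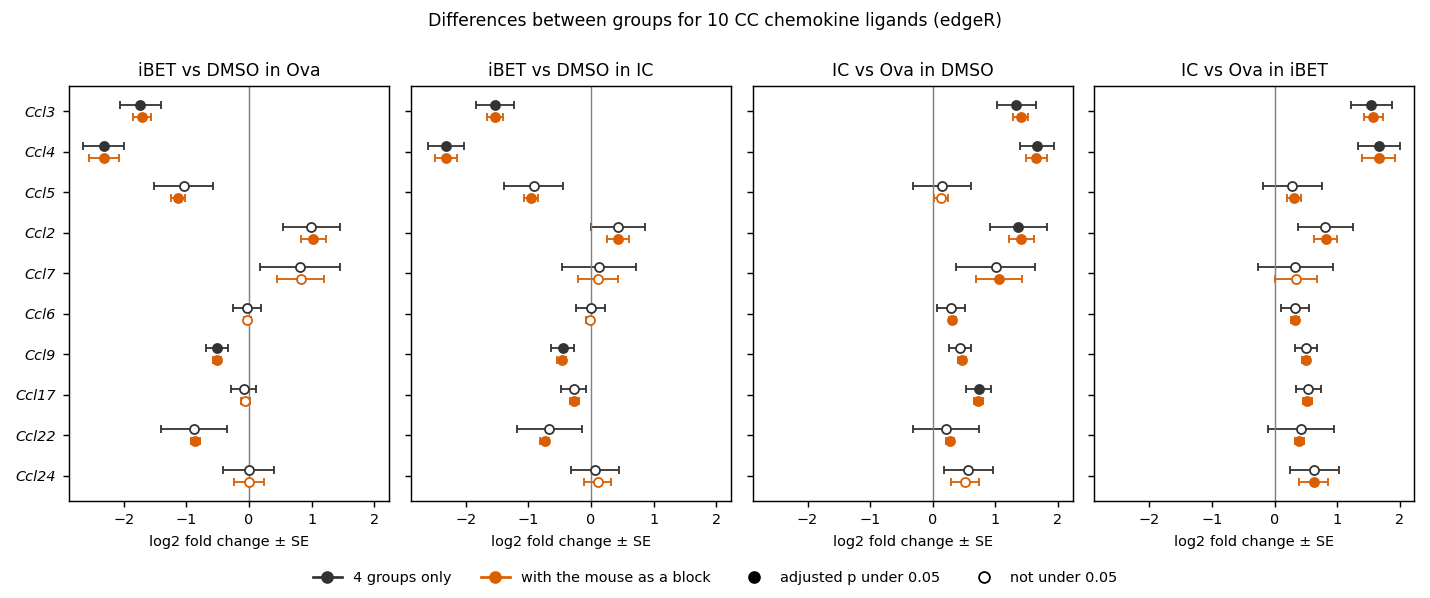
Log2 fold change with SE (x axis) of the 10 ligands in 4 comparisons by edgeR, from the fit with the 4 groups only (black) and with the mouse as a block (orange), filled where the adjusted p over all genes was under 0.05. All points for IC against Ova lie above 0, and the SE of Ccl5 and Ccl22 is several times narrower with the block.

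Whether iBET acted differently under IC than under Ova was tested as an interaction. No ligand passed by edgeR, where 5 of all genes (0.0401%) did, and 0 ligands had an unadjusted p under 0.05. DESeq2 and limma also called 0. With the block 0 ligands and 102 genes (0.818%) passed, and 2 ligands, both below 0, had an unadjusted p under 0.05. The difference of the iBET effects was below 0 in all 5 mice for Ccl2 (-0.56 on the log2 scale, SE 0.63), Ccl7 (-0.68, SE 0.87) and Ccl17 (-0.20, SE 0.28), and its sign varied among mice for the other 7 ligands. These SE are from the fit with the 4 groups only, where intervals are wide. With the block the difference was -0.60 for Ccl2 (SE 0.27), -0.71 for Ccl7 (SE 0.49) and -0.21 for Ccl17 (SE 0.096). For the other 7 ligands the block SE ran from 0.084 for Ccl6 to 0.32 for Ccl24. An unequal effect on single ligands was thus not called, which does not show that it was absent.

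Ccl3 and Ccl4, which recruit monocytes and T cells and are induced by inflammatory stimuli, had the largest decreases with iBET among the 10. Ccl3 stood at 52.6, 22.4, 24.0, 14.5 and 21.4 CPM in the DMSO Ova libraries of mice A to E, and at 12.2, 8.73, 8.98, 4.05 and 6.57 CPM with iBET and Ova. Every iBET value was below every DMSO value, a separation seen towards lower values in 19.5% of all genes. With IC the values were 82.3, 64.8, 91.3, 40.9 and 62.5 CPM in DMSO and 29.3, 24.5, 27.6, 14.9 and 21.6 CPM in iBET, again with no overlap, as for 21.6% of all genes. The log2 fold change for iBET was -1.74 (SE 0.33, edgeR adjusted p = 0.000139) with Ova and -1.53 (SE 0.31, adjusted p = 0.000296) with IC, a 3.33-fold and a 2.89-fold decrease. IC raised Ccl3 by 1.34 on the log2 scale in DMSO (SE 0.31, adjusted p = 0.00462) and by 1.54 in iBET (SE 0.32, adjusted p = 0.00422), higher in 5 of 5 mice each time. Without mouse C the value in DMSO was 1.17 and no longer passed in the fit with the 4 groups only (adjusted p = 0.0591). With the block and all mice it was 1.40 (SE 0.13, adjusted p = 1.77e-07). Mouse A had the highest Ova value by far, so the DMSO groups overlapped, whereas the iBET groups did not, as for 4.57% of all genes towards higher values.

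Ccl4 was the less abundant of this pair. Its DMSO Ova libraries held 7.21, 3.14, 5.04, 2.80 and 3.85 CPM in mice A to E, against 0.808, 0.759, 0.700, 0.495 and 1.59 CPM in iBET Ova. In IC the libraries held 13.2, 11.9, 20.7, 9.24 and 15.1 CPM with DMSO and 2.55, 2.54, 3.36, 1.86 and 3.84 CPM with iBET. No group overlapped with the one it was compared with. iBET lowered Ccl4 by 4.99-fold with Ova (log2 fold change -2.32, SE 0.33, adjusted p = 5.42e-06) and by 4.98-fold with IC (-2.32, SE 0.28, adjusted p = 9.37e-07). IC raised it 3.17-fold in DMSO (1.66, SE 0.27, adjusted p = 0.000315), where 5.97% of all genes separated upwards, and 3.17-fold in iBET (1.66, SE 0.33, adjusted p = 0.00290). The iBET IC libraries thus lay below or within the range of the DMSO Ova libraries for Ccl4, at a mean of 2.83 ± 0.775 CPM against 4.41 ± 1.79 CPM, although IC still raised the transcript on either background. Counts behind these values were small, 11 to 38 per library in iBET Ova.

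Ccl5, which binds CCR1 and CCR3 among others and attracts T cells, eosinophils and monocytes, differed more among mice than between treatments. In DMSO Ova it was 79.5 and 70.7 CPM in mice A and B and 219, 174 and 167 CPM in mice C, D and E. With iBET and Ova the values were 26.5 and 30.7 CPM and 106, 73.5 and 108 CPM. Within each mouse it was lower with iBET, in 5 of 5 mice with Ova and in 5 of 5 with IC, where DMSO held 59.9, 103, 236, 202 and 188 CPM and iBET 33.6, 43.0, 130, 103 and 109 CPM in mice A to E. The fit with the 4 groups only did not call the decrease (log2 fold change -1.05, SE 0.47, adjusted p = 0.0653 with Ova, and -0.92, SE 0.47, adjusted p = 0.104 with IC). With the block it passed, at -1.14 (SE 0.11, adjusted p = 5.94e-08) and -0.95 (SE 0.11, adjusted p = 5.40e-07). IC and Ova differed by 0.15 in DMSO (adjusted p = 0.870, and 0.402 with the block) and by 0.28 in iBET, which passed only with the block (0.31, adjusted p = 0.0481).

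Ccl2 and Ccl7 are ligands of CCR2, the receptor that brings monocytes out of the marrow and into tissue. Ccl2 was 11.2, 4.68, 5.70, 1.72 and 3.44 CPM in DMSO Ova of mice A to E and 17.2, 13.7, 10.9, 4.59 and 7.20 CPM in iBET Ova. Each mouse was higher with iBET, but mouse A in DMSO exceeded mice C, D and E in iBET, so the groups overlapped. The log2 fold change was 0.99 (SE 0.46, adjusted p = 0.0714), and 1.03 with the block (SE 0.21, adjusted p = 0.000220), the only rise with iBET in Ova that the block fit called among the 10. With IC the values were 15.9, 12.75, 22.9, 5.54 and 12.4 CPM in DMSO and 20.9, 22.35, 29.0, 8.58 and 12.7 CPM in iBET, a log2 fold change of 0.44 (adjusted p = 0.407, and 0.0413 with the block). IC raised Ccl2 2.58-fold in DMSO (1.37, SE 0.46, adjusted p = 0.0401), in 5 of 5 mice, and with the block by 1.41 (SE 0.20, adjusted p = 2.95e-05). The call of the fit with the 4 groups only was lost without mouse B (1.35, adjusted p = 0.113), mouse C (1.13, adjusted p = 0.197) or mouse E (1.28, adjusted p = 0.125). It was also lost with the 10 libraries compared (1.36, adjusted p = 0.0714) and in mice A and B alone (0.79, adjusted p = 0.198). In iBET the value was 0.81 (SE 0.44, adjusted p = 0.254), and the block fit called it (adjusted p = 0.00287).

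Ccl7 was near the limit of measurement, with 4 to 62 counts per library. Its level was 0.140 to 2.11 CPM in DMSO Ova, 0.375 to 2.00 in DMSO IC, 0.450 to 2.10 in iBET Ova and 0.429 to 2.35 CPM in iBET IC, with mouse D lowest in every group. The groups overlapped in every comparison. No comparison passed in the fit with the 4 groups only. The log2 fold change for iBET was 0.81 with Ova (SE 0.64, adjusted p = 0.291, and 0.0584 with the block) and 0.13 with IC (SE 0.59, adjusted p = 0.865, and 0.775 with the block), higher in 4 of 5 mice each time. IC in DMSO gave a log2 fold change of 1.00 (SE 0.63, adjusted p = 0.287), which passed with the block (1.05, SE 0.37, adjusted p = 0.0299). Without mouse A, whose DMSO Ova library was far above the others, it was 2.09 (adjusted p = 0.0367).

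Ccl6 and Ccl9 are neighbouring rodent genes whose products bind CCR1 and are made by myeloid cells in steady state. Ccl6 was not called with iBET, and the log2 fold change was -0.035 with Ova (SE 0.23, adjusted p = 0.905) and -0.0039 with IC (SE 0.23, adjusted p = 0.989), and the SE with the block was 0.059 for both. It was 9590, 8382, 4955, 5115 and 5872 CPM in DMSO Ova and 9326, 7795, 5441, 5042 and 5488 CPM in iBET Ova of mice A to E. Mice A and B were above the other 3 in every group. With IC, Ccl6 ran at 6707 to 10940 CPM in DMSO and 6060 to 11530 CPM in iBET. The difference from Ova was 0.29 in DMSO and 0.32 in iBET (SE 0.23, adjusted p = 0.407 and 0.409), higher in 5 of 5 mice both times, and the block fit called both (0.31, adjusted p = 0.000475, and 0.32, adjusted p = 0.000566).

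Ccl9 fell with iBET where Ccl6 did not pass. It was 1965, 1654, 1060, 1161 and 1333 CPM in DMSO Ova and 1341, 1134, 823, 788 and 935 CPM in iBET Ova. With IC the values were 2309, 2120, 1763, 1770 and 1753 CPM in DMSO and 1859, 1618, 1212, 1276 and 1132 CPM in iBET. All 5 mice were lower with iBET under both stimuli, but the groups overlapped. Mice A and B with iBET and Ova, and mouse A with iBET and IC, reached the level of mice C, D and E with DMSO. The log2 fold change was -0.51 with Ova (SE 0.18, adjusted p = 0.0199) and -0.45 with IC (SE 0.18, adjusted p = 0.0380). The call with Ova was lost without mouse B (-0.48, adjusted p = 0.0662), D (-0.51, adjusted p = 0.0502) or E (-0.51, adjusted p = 0.0560), and with IC without mouse B (-0.45, adjusted p = 0.0847), C (-0.43, adjusted p = 0.0835), D (-0.45, adjusted p = 0.0801) or E (-0.42, adjusted p = 0.118). It was also lost with IC without a filter on low counts (-0.43, adjusted p = 0.0554) and in mice A and B alone (-0.33, adjusted p = 0.0674). With the block it stood at -0.51 (SE 0.065, adjusted p = 1.56e-06) and -0.47 (SE 0.065, adjusted p = 4.04e-06). IC raised Ccl9 in 5 of 5 mice in each treatment, by 0.44 in DMSO (adjusted p = 0.0923) and 0.50 in iBET (adjusted p = 0.0771), calls that were made with the block (adjusted p = 2.57e-05 and 1.90e-05) or without mouse A (0.51, adjusted p = 0.0267, and 0.51, adjusted p = 0.0471).

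Ccl17 and Ccl22 bind CCR4, which is carried by Th2 cells and regulatory T cells, and are products of GM-CSF-grown dendritic cells. Ccl17 followed the stimulus. It was 460.5, 309, 512, 640 and 534 CPM in DMSO Ova of mice A to E and 652, 535, 960, 1024 and 906 CPM in DMSO IC, a rise in 5 of 5 mice by a log2 fold change of 0.73 (SE 0.20, adjusted p = 0.0143). In the fit with the 4 groups only, the call was lost without mouse C (0.69, adjusted p = 0.0907) or mouse E (0.72, adjusted p = 0.0640). With the block and all mice the rise was 0.73 (SE 0.068, adjusted p = 2.51e-07). In iBET the values were 469, 339, 460, 546 and 507 CPM with Ova and 568.5, 488, 748, 865 and 692 CPM with IC. The rise in iBET was 0.53 (SE 0.20, adjusted p = 0.0887), which passed with the block (0.52, SE 0.068, adjusted p = 1.94e-05) and without mouse B (0.53, adjusted p = 0.0373). iBET against DMSO was -0.082 with Ova (adjusted p = 0.748, and 0.459 with the block) and -0.28 with IC (adjusted p = 0.246), the latter lower in 5 of 5 mice and called with the block (-0.27, adjusted p = 0.00192).

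Ccl22 followed the mouse and, within a mouse, iBET. In DMSO Ova it was 505 and 395 CPM in mice A and B and 1670, 1636 and 1457 CPM in mice C, D and E, and in iBET Ova 294 and 220 CPM and 914, 831.5 and 833 CPM. With IC, DMSO held 576, 623, 1810, 1738 and 1800 CPM and iBET 327, 310, 1236, 1133 and 1128 CPM in mice A to E. Each mouse was lower with iBET, yet mice C, D and E with iBET stayed above mice A and B with DMSO. The log2 fold change of -0.87 with Ova (SE 0.53, adjusted p = 0.165) and -0.66 with IC (SE 0.52, adjusted p = 0.294) was not called, and with the block it was -0.86 (SE 0.071, adjusted p = 4.62e-09) and -0.74 (SE 0.071, adjusted p = 3.55e-08). IC was above Ova in 5 of 5 mice in each treatment by 0.21 and 0.42 (adjusted p = 0.832 and 0.681), which passed with the block (0.27, adjusted p = 0.00532, and 0.39, adjusted p = 0.000461).

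Ccl24, a CCR3 ligand that attracts eosinophils, had 15 to 72 counts per library. It lay at 0.566 to 1.54 CPM in DMSO Ova, 0.681 to 3.36 in DMSO IC, 0.687 to 1.67 in iBET Ova and 0.888 to 2.79 CPM in iBET IC, and all groups overlapped. iBET against DMSO gave log2 fold changes of -0.0085 with Ova and 0.060 with IC (SE 0.41 and 0.38, adjusted p = 0.987 and 0.906). IC against Ova gave 0.57 in DMSO (SE 0.39, adjusted p = 0.340) and 0.64 in iBET (SE 0.39, adjusted p = 0.333), and the latter, higher in 5 of 5 mice, passed with the block (0.62, SE 0.23, adjusted p = 0.0488).

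Neighbouring ligands were set against each other within each library, a description for which no test was made and which was chosen after the values were seen. The ratio of Ccl9 to Ccl6 counts, which does not depend on scaling between libraries, was 0.197 to 0.227 in DMSO Ova and 0.144 to 0.170 in iBET Ova. With IC it was 0.211 to 0.261 in DMSO and 0.161 to 0.187 in iBET. The ranges did not overlap between treatments under either stimulus, so the 2 genes, whose start regions are printed above, changed unequally with iBET in every mouse. The ratio of Ccl4 to Ccl3 was 0.137 to 0.210 in DMSO Ova, 0.0660 to 0.242 in iBET Ova, 0.160 to 0.242 in DMSO IC and 0.0872 to 0.177 in iBET IC. For Ccl17 to Ccl22 the median was 0.391 in DMSO Ova and 0.657 in iBET Ova, and 0.589 and 0.763 with IC, with wide ranges because the ratio was higher in mice A and B than in the other 3 mice in every group. Ccl2 to Ccl7 varied from 5.30 to 24.2 without order.

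**Figure D3:**
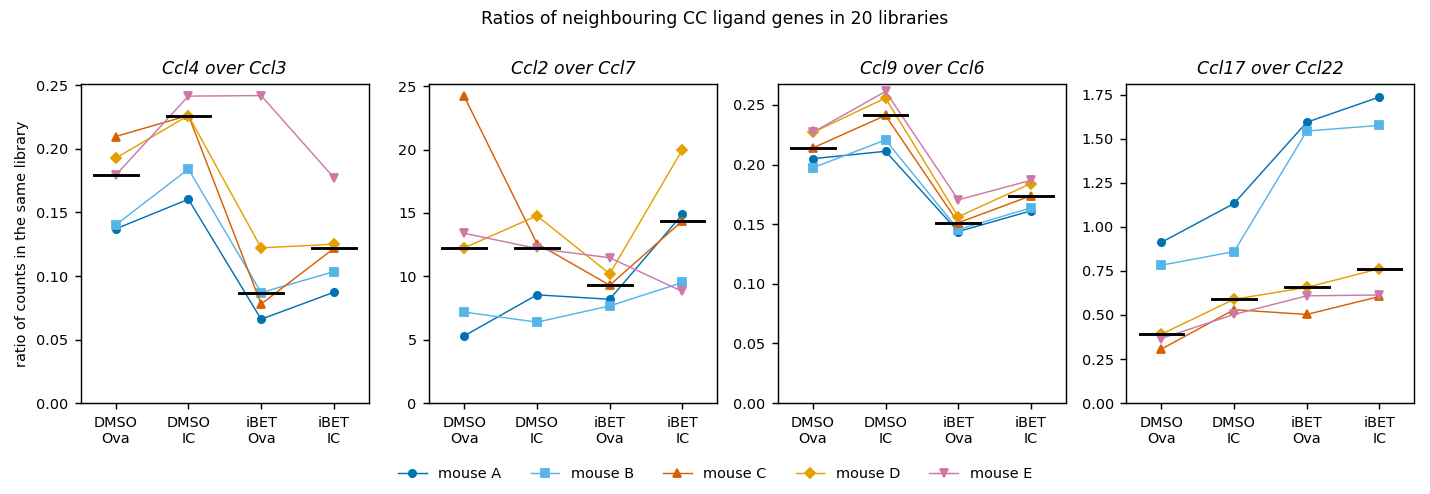
Ratio of the counts of neighbouring ligand genes within each library (y axis, from 0) in the 4 groups, with lines joining the libraries of a mouse and black bars for the median. The Ccl9 to Ccl6 ratio was at most 0.187 in the iBET libraries and at least 0.197 in the DMSO libraries.

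The sum of squares of log2 CPM over the 20 libraries was divided between iBET, stimulus, their interaction and mouse, as a description. iBET held 58.9% of the variation of Ccl4 and 44.4% of that of Ccl3, against a median of 40.2% over all genes tested. All other ligands were below that median, from 31.1% for Ccl9 down to 0.0884% for Ccl6. Stimulus held 47.8% for Ccl17, 39.4% for Ccl3, 32.5% for Ccl2, 32.4% for Ccl4 and 30.7% for Ccl9, whereas the median gene had 6.05%. The lowest shares for stimulus were those of Ccl5 (1.45%) and Ccl22 (2.94%). Mouse held 79.3% for Ccl22, 78.7% for Ccl6, 64.4% for Ccl5, 61.0% for Ccl24 and 55.0% for Ccl7, against a median of 17.5%. The interaction held at most 5.37%, for Ccl7. What remained was 0.912% for Ccl22, and 16.5% and 21.3% for the sparsely counted Ccl7 and Ccl24.

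**Figure D4:**
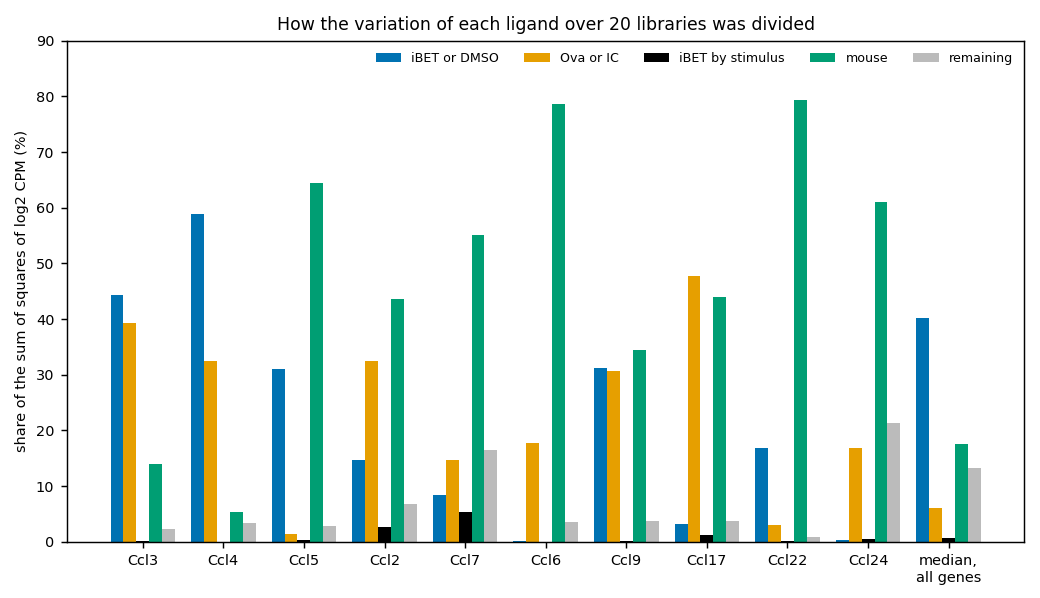
Share (%) of the sum of squares of log2 CPM over 20 libraries held by iBET, stimulus, their interaction, mouse and the remainder, for each ligand and as the median over all genes tested. Mouse is the tallest bar for Ccl22, Ccl6, Ccl5, Ccl24, Ccl7, Ccl2 and Ccl9, iBET for Ccl4 and Ccl3, and stimulus for Ccl17.

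The genes other than the 10 ligands whose profile over the 20 libraries was most like that of each ligand were found by the root mean square (RMS) difference of log2 CPM, each gene centred on its mean. For Ccl22 they were Ccr7, the receptor that guides mature dendritic cells to lymph nodes (RMS 0.175), and Grasp (0.192). For Ccl5 they were P2ry10 (0.222) and Pkib (0.2325), and for Ccl2 Rgcc (0.416) and Tnf, an inflammatory cytokine (0.504). Ccl9 had the smallest RMS of all 10, with Atp6v0d2, a subunit of the vacuolar proton pump (0.0778), followed by Slc36a4 (0.123). The RMS is not scaled by how much a gene varies, and the SD of log2 CPM was 0.448 for Ccl9 and 0.995 for Ccl22. Ccl6 was nearest to Bst1 (0.102) and Tyrobp (0.115), Ccl17 to 6330403A02Rik (0.217) and Stat5a (0.2215), Ccl3 to Slc7a11 (0.347) and Olr1 (0.355), Ccl4 to Hcar2 (0.4435) and Lrrc32 (0.4595), Ccl24 to Mical2 (0.379) and Ngfrap1 (0.390), and Ccl7 to Spp1 (0.586) and Kazn (0.596). Among the ligands themselves, Ccl2 and Ccl7, Ccl3 and Ccl4, Ccl5 and Ccl22, Ccl6 and Ccl9, and Ccl17 and Ccl24 were each other's nearest, at RMS values of 0.464, 0.523, 0.287, 0.2645 and 0.506. For Ccl17 and Ccl24 the RMS exceeded the SD of log2 CPM of Ccl17 itself, 0.4645, so being nearest does not make that pair alike.

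Of 9 CC chemokine receptors listed, 4 were tested, and Ccr4, the receptor of Ccl17 and Ccl22, was not among them. With iBET, 3 of the 4 fell under each stimulus, where 28.9% of all genes fell with Ova and 29.0% with IC. Ccr2, the receptor of Ccl2 and Ccl7, had 306 to 721 CPM in DMSO Ova and 13.3 to 16.2 CPM in iBET Ova, a log2 fold change of -5.02 (SE 0.26, adjusted p = 7.37e-12), and of -3.83 with IC (SE 0.25, adjusted p = 1.53e-10). Ccr1, which binds Ccl3, Ccl5, Ccl6 and Ccl9, had log2 fold changes of -2.71 and -2.57, from 253 to 489 CPM in DMSO Ova to 35.5 to 72.6 CPM in iBET Ova (adjusted p = 3.65e-09 and 7.01e-09). Ccr3, which binds Ccl24 and Ccl5, had -2.33 and -2.69 (adjusted p = 5.70e-07 and 8.03e-08). None of these 3 receptors overlapped between iBET and DMSO under either stimulus. Such a separation towards lower values was seen in 19.5% of all genes with Ova and 21.6% with IC. Ccr7 had -0.48 and -0.42 (adjusted p = 0.443 and 0.506) and fell with the block (-0.57, adjusted p = 2.14e-05, and -0.51, adjusted p = 7.20e-05).

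With IC in DMSO, Ccr2 fell by 1.15 (SE 0.22, adjusted p = 0.00126) and was the only one of the 4 to pass in edgeR without the block. In that comparison 10.7% of all genes fell and 9.59% rose. With the block, Ccr3 rose in DMSO (0.31, adjusted p = 0.0342), and Ccr7 rose in DMSO (0.25, adjusted p = 0.0371) and in iBET (0.31, adjusted p = 0.0155). The interaction for Ccr2 was 1.19 (SE 0.32, adjusted p = 0.426), which passed with the block (1.22, adjusted p = 0.0144), higher in 5 of 5 mice. Ccrl2, an atypical receptor that does not signal through G proteins, was the 1 tested of 5 atypical receptors. It moved in the same directions as Ccl3 and Ccl4, with -1.56 for iBET in Ova (adjusted p = 1.87e-05), -0.91 in IC (adjusted p = 0.00218), 0.67 for IC in DMSO (adjusted p = 0.0436) and 1.32 for IC in iBET (adjusted p = 0.00150). The rise in DMSO was called with the block (0.69, SE 0.18, adjusted p = 0.00572). In the fit with the 4 groups only it was not called without mouse B (0.72, adjusted p = 0.0507), C (0.60, adjusted p = 0.188), D (0.57, adjusted p = 0.140) or E (0.63, adjusted p = 0.104). Nor was it called with library size only (0.56, adjusted p = 0.0698), without a filter (0.67, adjusted p = 0.0611), with the 10 libraries compared (0.66, adjusted p = 0.0761) or in mice A and B alone (0.32, adjusted p = 0.429).

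Of 14 other CC ligands, 6 were without a single count and only 3 were tested. Ccl25, a thymic and gut ligand of CCR9, was 1.33 to 2.41 CPM in DMSO Ova and 2.97 to 4.55 CPM in iBET Ova and rose by 1.04 (SE 0.18, adjusted p = 5.41e-05), and by 1.00 with IC (SE 0.17, adjusted p = 5.94e-05). Its rise with IC was called in the block fit and not in the fit with the 4 groups only, in DMSO (0.40, adjusted p = 0.0261) and in iBET (0.37, adjusted p = 0.0200). Ccl27a and Ccl27b, related genes for which sharing of reads was not examined, were below 1 CPM in every library and did not pass in any comparison.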

How the data were processed

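The authors removed adapters and low-quality bases with Trim Galore, used HISAT2 for alignment to the mm10 build, and assigned reads to genes with featureCounts. Versions and the strand setting are not given in the sources used here. Libraries were made from total RNA with a SMARTer pico input kit. The labels say that cells were sorted into lysis buffer, the methods that they were lysed in culture. The authors deposited raw counts per gene and a table of normalised values, a signal-like unit that equals the deposited counts divided by DESeq2 size factors. It served for 1 alternative, with a pseudocount of 1 before log2.

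The main test was the quasi-likelihood test of edgeR 4.0.16 (R 4.3.3) on the deposited counts, with the 4 groups as the only factor over 20 libraries, filterByExpr, TMM factors and Benjamini-Hochberg adjustment over the 12465 genes tested, at a threshold of 0.05. Log2 CPM used a prior count of 2. Groups were taken from the sample titles, which hold a running number and the group and name no animal. The same letter was read as the same animal. Deviations of same-mouse libraries from their group means correlated at 0.307 or more across genes (mean 0.524 over 30 pairs, against -0.127 for different mice). The division of mice A and B from mice C, D and E also enters these correlations. A fit with the mouse as a block is given beside the main one. The 5 samples of a group are separate animals. No 2 libraries of a group agreed within counting noise (chi-square per degree of freedom at least 12.8 over 40 pairs).

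Alternatives were DESeq2 1.42.0 with and without the block, its size factors, library size alone, no filter, only the groups compared, limma 3.58.1 on the normalised values, 3 surrogate variables from sva 3.50.0, each mouse left out, mice A and B or C, D and E alone, and a minimum absolute log2 fold change of 1. The scripts were tested on simulated data. Gene positions and lengths came from GENCODE M21 (GRCm38), start regions from RefSeq. Named genes were the 10 ligands, receptors of a ligand that were tested and are reported here, and for each ligand the 2 genes nearest in profile. The members and all lists were chosen with earlier results of these data known.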

Additional observations from a re-analysis of the deposited data

Results flagged for a closer look

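Each ligand in each group of 5 mice was examined for a single library far from the others, 40 groups in all, of which chance alone would mark about 1 in 20. A Dixon ratio above 0.71 marked 3. The DMSO Ova library of mouse A held Ccl3 at 52.58 CPM, where the other 4 mice were at 14.53 to 24.02 CPM (ratio 0.751). The same library held Ccl7 at 2.114 CPM, against 0.1401 to 0.6521 CPM in the others (ratio 0.741). The iBET Ova library of mouse E held Ccl4 at 1.59 CPM, where the others were at 0.4954 to 0.8079 CPM (ratio 0.715).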

How the results depend on the processing

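Of 1264 log2 fold changes of the 10 ligands, 5 receptors and Ccl25 under alternatives, 1083 kept direction and side of the threshold, 104 passed where they had not, 30 no longer passed and 47 changed sign. The mean levels, 80 values under other scalings, all moved by less than 1 SD. The cause of these changes was not tested.

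The number of ligands higher with iBET in Ova, 0, was 1 with the mouse as a replicate block, 2 with DESeq2 and the block, 1 with limma, 2 with surrogate variables, 1 in mice A and B only and 0 to 2 with a mouse left out. The number lower there, 3, was 5 with the block, DESeq2 with the block, surrogate variables, mice A and B only and mice C, D and E only. With IC the number higher, 0, was 1 with the block, DESeq2 with the block and surrogate variables, and the number lower, 3, was 6 with those 3 settings and in mice C, D and E only. The number higher with IC in DMSO, 4, was 8 with the block and DESeq2 with the block, 7 with surrogate variables, 0 in mice A and B, 7 in mice C, D and E and 1 to 6 with a mouse left out. In iBET, 2, it was 9 with the block and DESeq2 with the block, 7 with surrogate variables, 0 in mice A and B and 6 in mice C, D and E. The block changed no other call of these genes beyond those given with the results. The share of all genes called was taken only for the main fit and the edgeR fit with the block, so the other counts have no share beside them.

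No value that changed sign passed the threshold before or after. For iBET in Ova, Ccl6 was 0.050 in mice C, D and E and -0.060 to 0.010 with a mouse left out, Ccl17 0.064 in mice A and B, and Ccl24 0.020 without a filter, 0.0022 with surrogate variables, 0.067 in mice A and B, 0.029 in mice C, D and E and -0.082 to 0.076 with a mouse left out. For iBET in IC, Ccl6 was 0.0012 by DESeq2, 0.00050 with its size factors, 0.014 without a filter, 0.056 with surrogate variables, 0.077 in mice A and B and -0.034 to 0.022 with a mouse left out, Ccl7 -0.022 in mice A and B, and Ccl24 -0.033 to 0.27 with a mouse left out. For IC in iBET, Ccl7 was -0.047 in mice A and B, Ccr1 -0.064 with library size only, -0.031 in mice A and B and -0.00015 to 0.074 with a mouse left out, Ccr2 -0.069 with library size only, -0.097 with surrogate variables, -0.11 in mice C, D and E and -0.048 to 0.14 with a mouse left out, and Ccr3 0.016 in mice C, D and E and -0.19 to 0.027 with a mouse left out. For the interaction, Ccl4 was -0.34, Ccl6 -0.093 and Ccl9 -0.087 in mice C, D and E, Ccl22 -0.079 and Ccl24 -0.037 in mice A and B, Ccl25 0.060 with surrogate variables, and with a mouse left out Ccl3 ran from -0.0013 to 0.35, Ccl4 from -0.28 to 0.30, Ccl6 from -0.0081 to 0.078, Ccl24 from -0.11 to 0.27 and Ccr7 from -0.012 to 0.14. Depth limits Ccl4, Ccl7 and Ccl24, with as few as 11, 4 and 15 counts in a library.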
